A study of Mus musculus with 6 samples.

Results

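In the growth hormone axis of the liver, 10 genes were followed, chosen by gene symbol among the 24239 symbols of the array: the receptor Ghr, the transcription factors Stat5a and Stat5b, the feedback inhibitors Socs2 and Cish, the growth factor Igf1 and its carrier protein Igfals, the repressors Bcl6 and Cux2, and the male-specific steroid enzyme Hsd3b5. The RNA came from whole liver of male B6C3F1 mice (a hybrid strain), labelled as 7 weeks old. The 3 control mice received corn oil by mouth for 5 days, and the 3 TCE mice received trichloroethylene (TCE, an industrial solvent) in corn oil at 1000 mg/kg per day for the same 5 days. RNA of each mouse was hybridized with a single dye to an array of its own, and the values below are log2 signals after quantile normalization, so that a difference of 1 is a 2-fold difference. Signals of different probes are not compared with each other, since the brightness of a probe also depends on its sequence.

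Growth hormone from the pituitary binds its receptor on hepatocytes, the bound kinase JAK2 phosphorylates STAT5, and STAT5 enters the nucleus and switches on genes such as Igf1, Igfals, Socs2 and Cish. SOCS2 and CIS, the protein of Cish, in turn dampen the receptor. In male mice the hormone arrives in pulses, STAT5b is the main form in liver, and the pulsed signal sustains male-specific genes such as Hsd3b5. BCL6 competes with STAT5 for similar sites, and CUX2 is a repressor of the female liver.

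The 10 genes had 20 probes, and 17 probes of 9 genes were detected, meaning that every mouse of 1 group or of both gave a signal well above background. All of the 17 were well above background in all 3 control mice, and 16 of them in all 3 TCE mice as well. Each array had 23538 to 24968 of 55681 probes well above background and 0 saturated spots. The array of control mouse 1 sat alone on its slide, which was also scanned separately, while those of the other 5 mice were together on another. A fit with slide as a block therefore gives the same change as leaving out control mouse 1. The p-values set the difference between the groups against the spread of mice within a group, an estimate partly shared across all detected probes. Among the control mice this spread also includes any difference between the slides.

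STAT5 is known to bind the palindrome TTCNNNGAA. The promoters of the Cish, Igfals and Hsd3b5 genes are shown because these had the largest detected changes with a promoter in the RefSeq table (GRCm38.p6). Of the 10 genes 9 were matched by symbol, all except Socs2. In the windows from 250 bases before to 50 bases after each gene start, the palindrome, which reads alike on both strands, was found in 3 of the 9 genes (Cish, Igfals and Bcl6), and in 9.55% of all 27025 genes. By window the share was 5 of 16, against 8.3% of 32851 windows. Capitals mark the palindrome, and a match is a string of letters, not a measured binding site.
Cish, chr9:107296409-107296688, plus strand: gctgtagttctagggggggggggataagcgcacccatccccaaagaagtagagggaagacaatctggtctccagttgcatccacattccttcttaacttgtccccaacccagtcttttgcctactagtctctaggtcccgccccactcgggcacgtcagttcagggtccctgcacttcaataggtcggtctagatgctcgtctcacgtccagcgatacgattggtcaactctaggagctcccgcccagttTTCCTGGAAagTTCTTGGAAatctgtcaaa
Igfals, first start, chr17:24877594-24877843, plus strand: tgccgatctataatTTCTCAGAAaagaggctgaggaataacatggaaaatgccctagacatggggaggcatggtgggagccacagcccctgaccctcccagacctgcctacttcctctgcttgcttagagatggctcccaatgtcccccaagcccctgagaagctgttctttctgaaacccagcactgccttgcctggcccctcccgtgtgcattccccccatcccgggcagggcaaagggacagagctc
Igfals, before the next start, chr17:24878163-24878191, plus strand: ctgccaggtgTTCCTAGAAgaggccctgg
Hsd3b5, chr3:98645535-98645784, minus strand: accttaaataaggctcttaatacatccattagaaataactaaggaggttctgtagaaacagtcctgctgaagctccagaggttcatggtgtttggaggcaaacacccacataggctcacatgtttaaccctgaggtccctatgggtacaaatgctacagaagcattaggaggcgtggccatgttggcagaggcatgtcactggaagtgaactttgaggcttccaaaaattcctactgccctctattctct

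The Cish window held a tandem pair, beginning at base 1 and base 12 counted from the start. More than 1 match was seen in 0.457% of all windows. The Igfals matches lay at -236 from the first start and at -58 from the next. Bcl6 held 1 match before its first start, at -118, and 3 before a start further downstream, at -168, -122 and -88. The windows of Hsd3b5, Igf1, Ghr, Stat5a, Stat5b and Cux2 held none, which says only that these letters are not in those windows.

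The threshold was an adjusted p up to 0.05 by limma together with at least a 2-fold difference. Past it were 2 of the 17 detected probes, those of Igfals and Hsd3b5, both lower in the TCE group. Over all 22731 detected probes 0.383% were past it on the lower side. Of the 17 probes 16 had a negative change, against 47.6% of all detected probes, and 10 had an unadjusted limma p under 0.05, against 17.9%. In 10 probes of 5 genes every TCE mouse lay below every control mouse. Such a separation on the lower side was seen in 10.2% of all detected probes, and by gene in 5 of 9, against 12.6% of all detected genes. Probes of a gene were read in the same mice and may share transcripts, so they are not independent. In a whole-tissue sample, fewer cells of a type and less RNA per cell cannot be told apart.

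The receptor and its transcription factors had no call. Ghr, the growth hormone receptor, was read by 2 probes on chromosome 15 (mm9). The brighter of them (3277543 to 3277602) read 14.72, 14.85 and 14.71 in control mice 1, 2 and 3 and 14.41, 14.24 and 14.26 in TCE mice 1, 2 and 3. The groups did not overlap, but the change was -0.46 with a 95% confidence interval from -0.73 to -0.19 and did not reach the threshold (limma adjusted p = 0.113). The other probe (3268107 to 3268166) gave -0.40 (limma adjusted p = 0.202), again with the groups apart. The array's annotation assigns the 2 probes to different Ghr transcripts, and which form of the receptor each reads was not tested.

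Stat5b, the main STAT5 form of liver, was read by a probe on chromosome 11 from 100642045 to 100642104. Its log2 signals were 11.19, 11.25 and 11.12 in control mice and 11.17, 11.11 and 11.25 in TCE mice. The groups overlapped, and the change at this probe was -0.01 with a 95% confidence interval from -0.27 to 0.25 (limma adjusted p = 0.969). A neighbouring probe (100642187 to 100642246) left a wider range, with a change of -0.20 and an interval from -0.91 to 0.52 (limma adjusted p = 0.777). There TCE mouse 2 read 9.50 and the other 5 mice 10.30 to 10.56.
Stat5a, the closely related second form, was read from 100746373 to 100746432 on the same chromosome. The control mice gave 8.74, 8.91 and 9.21, and the TCE mice 9.07, 9.22 and 9.25. The groups overlapped, with a change of 0.23 (95% confidence interval -0.14 to 0.60, limma adjusted p = 0.489).

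**Figure D1:**
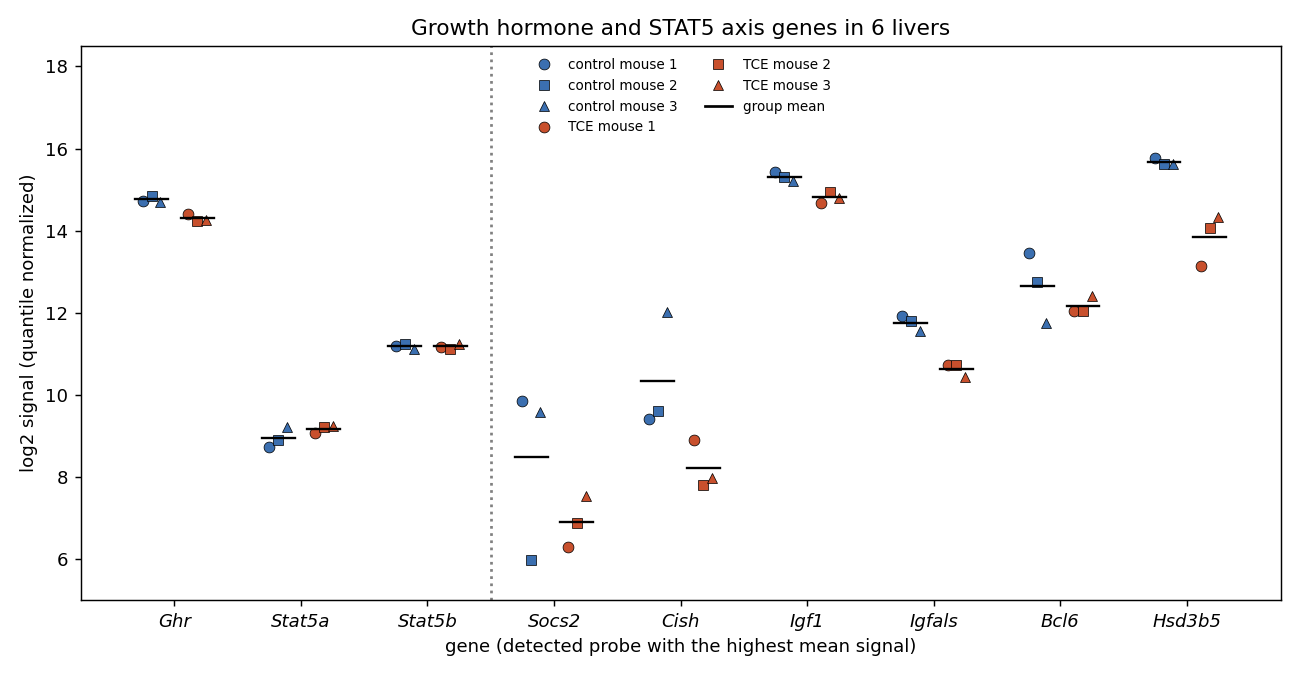
Log2 signal (y axis) of the 9 detected genes (x axis) in each of the 6 mice, 1 probe a gene, with control mice in blue, TCE mice in orange, a symbol for each mouse number and a bar for the group mean. The dotted line parts the receptor and STAT5 genes from the others. The groups overlap for Stat5b and lie apart for Ghr, Igfals and Hsd3b5, and the control mice spread from 5.98 to 9.86 for Socs2.

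Among the control mice the feedback inhibitors varied more than any other member. Socs2, which is switched on by STAT5 and limits signalling at the receptor, had a probe printed in 10 spots on chromosome 10 (94875066 to 94875125). It read 9.86, 5.98 and 9.59 in control mice 1, 2 and 3, and 6.29, 6.89 and 7.53 in TCE mice. Control mouse 2 was thus the lowest of all 6, while the other controls were above every TCE mouse. The change was -1.57 (SE 1.03, limma adjusted p = 0.480).
The 2 other detected Socs2 probes showed the same order of the control mice, 9.33, 5.90 and 9.11 from 94875187 to 94875246, and 9.14, 6.05 and 9.11 from 94875468 to 94875527. Their changes were -1.38 and -1.61. Without control mouse 2 the change of the first probe was -2.82 (limma adjusted p = 0.0621), and without control mouse 1 it was -0.88. A further probe (94848005 to 94848064) did not rise well above background on any array.

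Cish, a STAT5 target whose protein blocks the receptor's docking sites and whose promoter is printed above, was read on chromosome 9 from 107204196 to 107204255. Its log2 signals were 9.41, 9.60 and 12.01 in control mice 1, 2 and 3 and 8.90, 7.80 and 7.98 in TCE mice. Control mouse 3 stood far above the other controls, and the TCE mice were all below the controls. The fitted change was -2.11 (SE 0.72), a 4.33-fold lower mean, which did not reach the threshold (limma adjusted p = 0.205). Without control mouse 3 it was -1.28 (limma adjusted p = 0.213). The control mouse with the highest Cish signal was thus not the one with the low Socs2 signal.

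**Figure D2:**
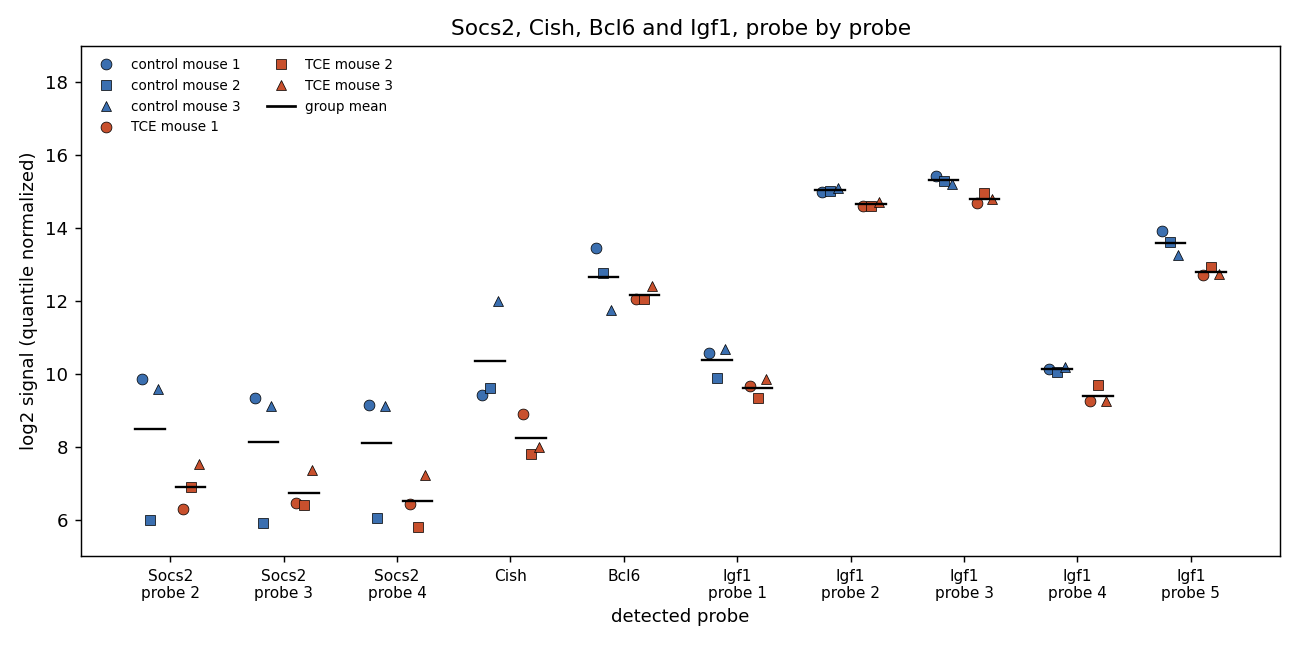
Log2 signal (y axis) of every detected probe of Socs2, Cish, Bcl6 and Igf1 (x axis) in each mouse, control in blue and TCE in orange, bars for group means. The 3 Socs2 probes repeat the low value of control mouse 2 (5.90 to 6.05), Cish is high in control mouse 3 (12.01), and at each of the 5 Igf1 probes the TCE mice lie below the control mice.

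At the growth targets every TCE mouse lay below every control mouse, as for Ghr, and only Igfals reached the threshold. Igf1, the growth factor that liver releases into blood under growth hormone, was read by 5 probes on chromosome 10, and at each of them all TCE mice were below all control mice. The brightest (87393581 to 87393640) read 15.43, 15.30 and 15.22 in control mice and 14.68, 14.95 and 14.80 in TCE mice, a change of -0.50 (SE 0.13, limma adjusted p = 0.117). An overlapping probe (87393561 to 87393620) gave -0.39.
The remaining 3 probes gave larger differences. From 87399581 to 87399640 the control mice read 13.92, 13.61 and 13.26 and the TCE mice 12.72, 12.94 and 12.74, a change of -0.80, or 1.74-fold lower (limma adjusted p = 0.103). The change was -0.73 from 87395924 to 87395983 (limma adjusted p = 0.0826) and -0.76 from 87378456 to 87378515 (limma adjusted p = 0.193). None of the 5 reached the threshold, and their changes ranged from 1.31-fold to 1.74-fold. The array's annotation assigns the probe from 87378456 to 87378515 to another Igf1 transcript than the rest.

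Igfals, the liver protein that holds IGF-1 in a long-lived complex in blood, fell. Its probe on chromosome 17 (25018251 to 25018310) read 11.92, 11.80 and 11.56 in control mice and 10.74, 10.72 and 10.43 in TCE mice. The groups lay well apart, with a change of -1.13 (SE 0.15), or 2.19-fold lower (limma adjusted p = 0.0251). Leaving out any 1 of the 6 mice ended the call, at changes between -1.03 and -1.23 and adjusted p from 0.0540 to 0.118, and without control mouse 1, the array on a slide of its own, the change was -1.05 (limma adjusted p = 0.0839).

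Hsd3b5, a 3-beta-hydroxysteroid dehydrogenase of male mouse liver, fell most among the members past the threshold. On chromosome 3, from 98422576 to 98422635, it read 15.78, 15.63 and 15.62 in control mice 1, 2 and 3, and 13.15, 14.07 and 14.33 in TCE mice. The control mice were close together and the TCE mice spread below them. The change was -1.83 (SE 0.30), or 3.54-fold lower (limma adjusted p = 0.0414). The call was lost without any 1 of the 3 control mice (limma adjusted p = 0.127, 0.148 and 0.120 without control mouse 1, 2 and 3) and without TCE mouse 2 (limma adjusted p = 0.0851), and was kept without TCE mouse 1 or 3, with changes between -1.48 and -2.07 over the 6 fits.
Relatives of this enzyme may share signal on a hybridization array. Of 7 detected probes for other Hsd3b genes 0 were past the threshold by limma, where 0.383% of all detected probes were past it on the lower side. All 7 were lower, at changes from -1.59 to -0.24 (lowest limma adjusted p = 0.113). The groups lay apart for Hsd3b4 (3.01-fold lower), Hsd3b6 (2.01-fold lower) and the Hsd3b2 probes at -0.30 and -0.70. They overlapped for the other Hsd3b2 probe, Hsd3b3 and Hsd3b7. Such a separation on the lower side was seen in 10.2% of all detected probes. The Hsd3b4 probe was well above background in only 1 of the 3 TCE mice, so its fold and separation rest on TCE signals near background. Another Hsd3b4 probe was not detected. Whether the Hsd3b5 probe shares signal with these relatives was not tested.

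The repressors gave no call. Bcl6, on chromosome 16 from 23965160 to 23965219, read 13.45, 12.76 and 11.76 in control mice 1, 2 and 3 and 12.05, 12.05 and 12.42 in TCE mice. The lowest Bcl6 signal of all was thus in control mouse 3, which had the highest Cish signal, and the TCE mice lay inside the range of the controls. The change of -0.49 (95% confidence interval -1.48 to 0.50, limma adjusted p = 0.585) moved from -0.94 without control mouse 3 to -0.09 without control mouse 1.
Cux2, the female-liver repressor, was not well above background in any of these male mice at either of its probes on chromosome 5 (122308503 to 122308562 and 122310226 to 122310285), so no difference is given.

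**Figure D3:**
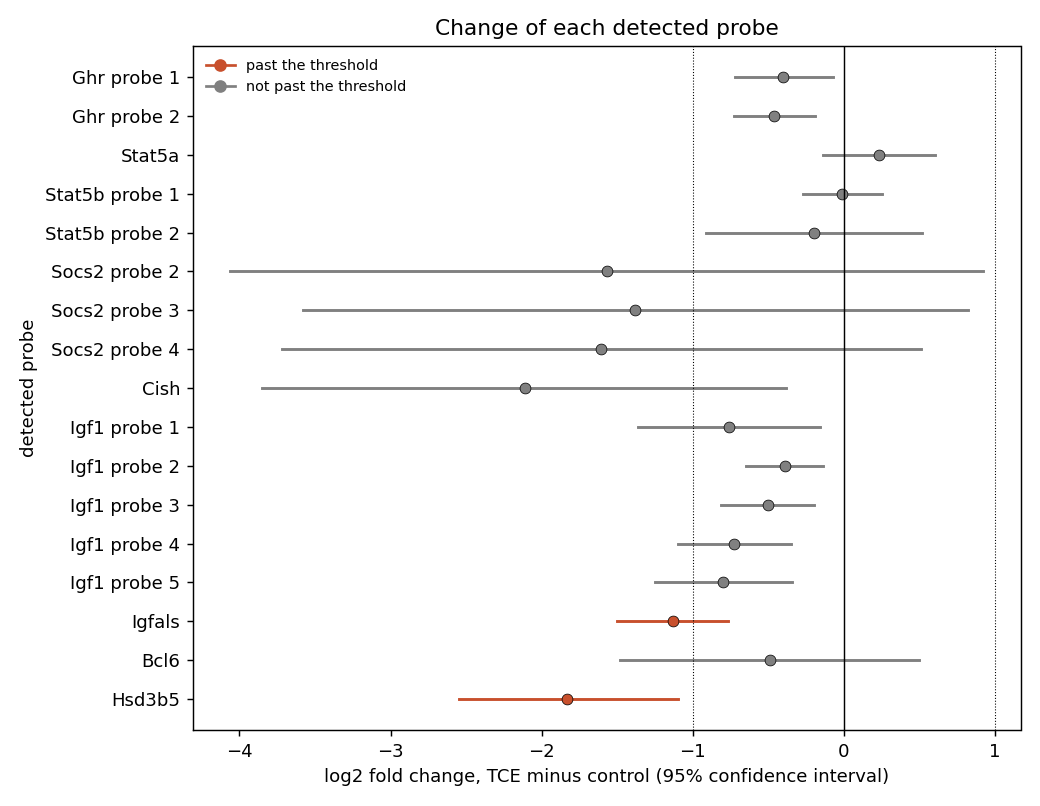
Log2 fold change (x axis, TCE minus control) of the 17 detected probes (y axis) with the 95% confidence interval of the limma fit. Dotted lines mark a 2-fold change, orange marks probes past the threshold. The intervals of Stat5b are -0.27 to 0.25 and -0.91 to 0.52 at its 2 probes, those of Socs2 cross 0, and Igfals and Hsd3b5 are past the threshold on the lower side.

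Set side by side, the median log2 fold change was -0.01 for the 3 receptor and signal genes (range -0.46 to 0.23), and -1.35 for the 6 detected targets and repressors (range -2.11 to -0.49), with 1 probe for each gene. All detected probes had a median of 0.02. The first median is the value of Stat5b, while Ghr at -0.46 changed about as much as Igf1 at -0.50, both without a call. Scaling each array by its 75th percentile put the first median at 0.06, and without control mouse 1 the second was -0.96. With all 6 mice the second median lay between Socs2 at -1.57 (SE 1.03) and Igfals at -1.13. Its set pools targets with the repressor Bcl6 (-0.49). These medians describe genes chosen by name, and the difference between them was not tested.

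Other parts of the pathway were described with a list of 27 genes of growth hormone receptor signalling (kinases, phosphatases, adaptors, other SOCS and STAT proteins, and liver factors that cooperate with STAT5), of which 24 were detected. Their median log2 fold change was -0.09, with 9 higher and 15 lower. Past the threshold were 0 on the higher and 1 on the lower side, against 1.3% and 0.429% of all detected genes counted by their brightest probe. Without adjustment, 4 of the 24 had a limma p under 0.05, where the share of all detected genes was 19.1%.
The gene past the threshold was Foxa2, a hepatocyte transcription factor, which fell from 12.41 ± 0.21 to 11.35 ± 0.17 (SD, n = 3 each), a change of -1.07 (limma adjusted p = 0.0319) whose call did not hold with any 1 of the 6 mice left out. Jak2, the kinase bound to the receptor, had a change of -0.10 (limma adjusted p = 0.674).

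A further pair of lists holds genes known to depend on the sex pattern of growth hormone in mouse liver. Of 26 male-biased genes, 22 were detected, with a median of -0.43. Of these 17 were lower and 5 higher, where 46.9% of all detected genes were lower, and in 11 the TCE mice were all below the control mice, against 10.8% of all detected genes. Past the threshold were 0 on the higher and 4 on the lower side, against 1.3% and 0.429% of all detected genes.
Cyp7b1, an oxysterol hydroxylase, fell from 16.12 ± 0.30 to 14.69 ± 0.37 (SD, n = 3 each), a change of -1.43 (limma adjusted p = 0.0440). Mup21, a major urinary protein, fell from 17.37 ± 0.12 to 16.08 ± 0.08 (SD, n = 3 each, limma adjusted p = 0.00734), and Ugt2b1, a glucuronosyltransferase, from 13.36 ± 0.13 to 12.15 ± 0.07 (SD, n = 3 each, limma adjusted p = 0.00965). Serpina12 fell at least 4.60-fold, to a signal that no TCE array measured well above background (limma adjusted p = 0.0191). It was detected through the control group alone, so this p-value and the separation of its groups rest on TCE signals near background. Among probes well above background on all 6 arrays, 3 genes of the list were past the threshold on the lower side. Major urinary proteins and UGT2B enzymes form families with close copies, so single members are less certain. With 1 mouse left out, 1 to 3 genes of the list were past the threshold on the lower side, the fewest without TCE mouse 1.

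Of 34 female-biased genes, 22 were detected, with a median of 0.41. In 9 the TCE mice were all above the control mice, against 17.1% of all detected genes, and in 3 all below, against 10.8%. Akr1b7, Cyp3a44 and Abcd2 among the former and Atp6v0d2 among the latter were detected only through the group with the higher signal. Their separation rests partly on signals not well above background in the other group. Of the 22, 4 were past the threshold on the higher and 1 on the lower side, against 1.3% and 0.429% of all detected genes. All of these 5 were among the genes marked as also targets of PPARalpha, a fatty acid receptor, or of CAR, a drug receptor. Cyp4a14, a fatty acid hydroxylase, rose by 5.42 (limma adjusted p = 0.00109), Cd36, a fatty acid transporter, by 2.96 (limma adjusted p = 0.00301), and Vldlr, a lipoprotein receptor, by 2.17 (limma adjusted p = 0.0155) on the log2 scale. Akr1b7, an aldo-keto reductase, rose at least 3.36-fold from a signal that no control array measured well above background (limma adjusted p = 0.0157). It was detected through the TCE group alone, so this p-value rests on control signals near background. Among probes well above background on all 6 arrays, 3 genes of the list were past the threshold on the higher side. Slco1a4, a transporter, fell by 1.24 (limma adjusted p = 0.0328). Leaving out any 1 of the 6 mice ended the call of Slco1a4. With 1 mouse left out, 2 to 6 of the list were past the threshold on the higher side, the fewest without control mouse 2 or 3 and the most without control mouse 1.
Without the genes so marked, 14 female-biased genes were detected, with a median of -0.02, 7 higher and 7 lower, and 0 past the threshold by limma. An unadjusted limma p under 0.05 was seen in 4 of the 14, against 19.1% of all detected genes. In 2 of the 14 the TCE mice were all above the control mice and in 2 all below, against 17.1% and 10.8% of all detected genes. Cyp3a44 among those above and Atp6v0d2 among those below were detected only through the group with the higher signal. Both also had an unadjusted limma p under 0.05. Their separation and p-values rest partly on signals not well above background. Among the male-biased genes the same step left 19, with a median of -0.53, and all 4 calls. The part of PPARalpha or CAR in the changes of either list was not tested.

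**Figure D4:**
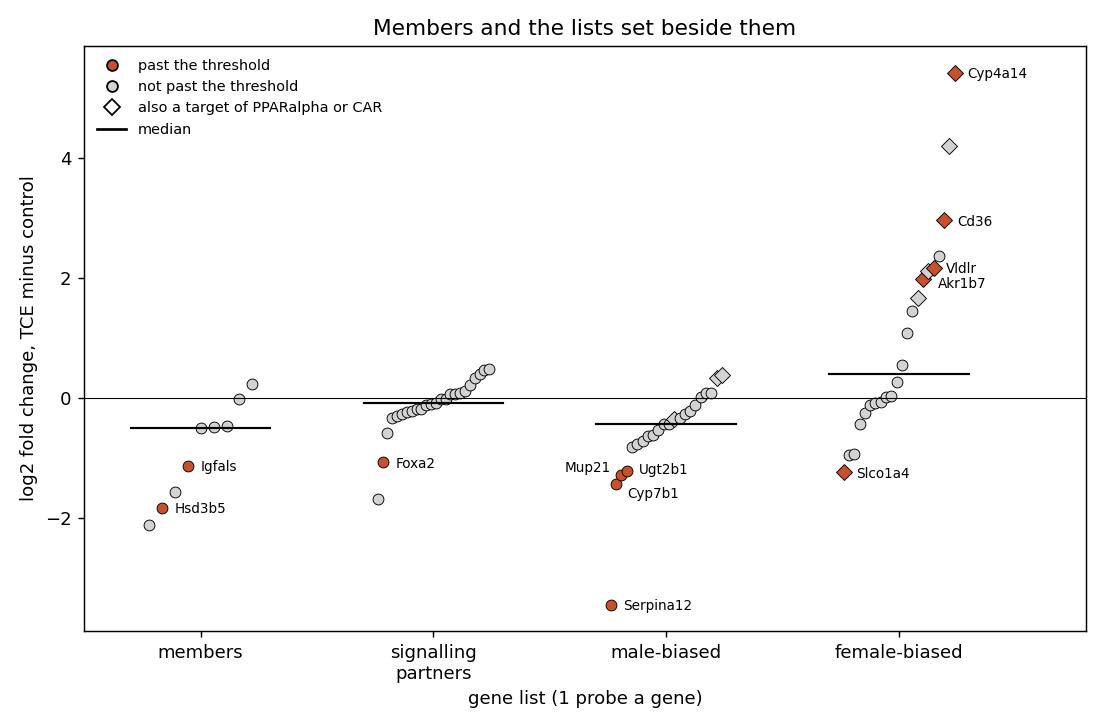
Log2 fold change (y axis, TCE minus control) of each detected gene, 1 probe a gene, for the 9 members and the 3 lists (x axis), with bars at the medians and names for genes past the threshold. Diamonds mark targets of PPARalpha or CAR, and the values of Serpina12 and Akr1b7 are fitted against signals not well above background. The medians are -0.50, -0.09, -0.43 and 0.41 from left to right.

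Profiles were also compared with that of Cish, the member with the largest fitted change, by the root mean square difference of the log2 signals over the 6 mice after subtraction of each probe's mean. The nearest genes were Ern1 with 0.47, Ahnak with 0.48 and Onecut1 with 0.57. A probe of Onecut1, which encodes a liver factor and is on the signalling list, read 6.89, 5.41 and 9.08 in control mice and 5.65, 5.30 and 5.09 in TCE mice. This resemblance is what selected the probe. The brightest Onecut1 probe had a change of -1.68 (limma adjusted p = 0.330).

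The tissue label was checked with markers of liver cells. All 8 hepatocyte markers were detected, with summed signals of 1890000 to 1910000 in control and 1690000 to 1920000 in TCE mice and a median change of -0.12. Kupffer cell markers (8 of 8 detected) had a median of -0.14, endothelial markers (8 of 8) of -0.20, stellate markers (7 of 8) of 0.01, cholangiocyte markers (3 of 6) of -0.22 and lymphocyte markers (3 of 8) of -0.19, and 0 markers of any of these lists were past the threshold by limma. All 8 Kupffer and all 8 endothelial markers had a negative change, as did 6 of the 8 hepatocyte markers, against 46.9% of all detected genes. Every TCE mouse lay below every control mouse in 3 of 8 hepatocyte, 2 of 8 endothelial and 1 of 7 stellate markers. In the other lists this was 0, against 10.8% of all detected genes. Epcam of the bile duct and, among others, Cd3g, Ms4a1 and Ncr1 of lymphocytes were not well above background on any array. The stellate markers went both ways, with Lrat, an enzyme of vitamin A storage, at -1.35 (groups apart, limma adjusted p = 0.0676) and Reln at -1.34 (limma adjusted p = 0.368), beside Col1a1 at 0.25 and Col3a1 at 0.16.

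The summed endothelial signal was 25100 to 25700 in control mice, against 14100, 27000 and 24500 in TCE mice 1, 2 and 3. TCE mouse 1 was the lowest of the TCE mice at all 8 endothelial markers, and it also had the lowest Hsd3b5 signal, 13.15. Without TCE mouse 1 the change of Hsd3b5 was -1.48 (limma adjusted p = 0.0292). The summed signals of Kupffer and stellate markers overlapped between the groups, and those of lymphocyte markers (1960 to 2040 in control and 1400 to 1910 in TCE mice) did not. The part of any cell type in the changes above was not tested.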

How the data were processed

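Liver RNA of 3 control and 3 TCE mice, grouped by the labels, was measured on 1-colour arrays. Mice carry the replicate numbers of the labels. The deposited files carry numbers that differ from the sample titles, so which file belongs to which mouse of a group rests on the series record alone, while files and labels give the same group. Per the submitters' processing notes the authors used Agilent Feature Extraction 10.7.1.1. Its deposited output holds, for 62976 spots an array, a processed intensity corrected for background, besides the mean pixel intensity, the local background and spot flags. A deposited series table gives group means only, as intensity and as quantile-normalized log2 values, and 6 flag columns whose names could not be tied to single mice and which were not used. For the report, control spots and 123 to 189 outlier-flagged spots per array were removed. The processed intensity was converted to log2 without a pseudocount, replicate spots were averaged and arrays were quantile normalized. The resulting group means differed by less than 0.01 from the deposited log2 means in 99.99% of values.

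The 22731 detected probes were fitted in R 4.3.3 with limma 3.58.1, on group alone and two-sided, with Benjamini-Hochberg adjustment over all of them, and the script was tested on simulated data. Each gene of a list was represented by its brightest detected probe. Where no array of a group was well above background, the fold is a limit set by the lowest signal called well above background on each array, or the probe's own where higher. The number of arrays limits the precision. Alternatives were the 75th percentile, normexp, other filters, slide and replicate blocks, a trended robust variance, the methods' t-test, other probes and omission of single mice.

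The members and lists were chosen with earlier results of these data known. All members were named, with the list genes past the threshold (up to 6 a list, or the 3 with the smallest p) and the 3 profiles nearest to Cish. The 2 signalling genes named only by p were Ptpn6 (0.47) and Stat3 (0.40), in log2 fold change and not past the threshold. Jak2 was added after its value was seen. Coordinates of probes follow the annotation supplied with the array (mm9) and were not joined to gene models, so exons are not given. Promoters were searched with Python 3.11.15, and figures were drawn with matplotlib 3.10.9.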

Additional observations from a re-analysis of the deposited data

How the results depend on the processing

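The call of Igfals and Hsd3b5 sits near the threshold and the precision is limited by 3 arrays a group. Of the main values, 2 members were past the threshold, as were 1 signalling gene (lower), 4 male-biased genes (lower) and 4 higher and 1 lower female-biased genes. With no filter on dim probes, which tests more probes, these were 0 members, 0 signalling genes, 2 male-biased genes and 0 lower female-biased genes, and the median of targets and repressors was -1.13. With slide as a block, which uses only the arrays of the shared slide, they were 0, 0, 2 and 0, with a median of -0.96. The replicate numbers did not pair the mice (correlations of deviations 0.09, 0.01 and -0.09, where control mouse 2 and control mouse 3 were nearest to another number). The replicate block left 0 members, 0 signalling genes, 0 male-biased genes and 1 higher and 0 lower female-biased genes, with Igfals at an adjusted p of 0.0853 and Hsd3b5 at 0.136 in limma. The methods' t-test gave 9 higher female-biased genes without adjustment, and after Benjamini-Hochberg 0 members, 0 signalling genes, 1 male-biased gene and 1 higher and 0 lower female-biased genes. Normexp correction gave 0 lower female-biased genes. The median of the receptor and signal genes was 0.06 with the 75th percentile and -0.10 with the mean over all detected probes of each gene. The change of Stat5b near 0 turned to 0.06 with the 75th percentile and 0.02 with normexp, and ranged from -0.05 to 0.02 with 1 mouse left out. Leaving out PPARalpha or CAR targets left 0 higher and 0 lower female-biased genes. With 1 mouse left out, past the threshold were 0 to 1 members, 0 signalling genes, 1 to 3 male-biased genes, 2 to 6 higher and 0 lower female-biased genes, and the median of targets and repressors was -1.48 to -0.96. The cause was not tested in cases other than those named. Of all values compared, 247 kept direction and call or size, 54 moved, 18 lost the call and 4 turned sign.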
